A study of Mus musculus with 2 samples.

Results

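*Hoxa5*, *Hoxa6*, *Hoxa7*, *Hoxa9* and *Hoxa10* are neighbouring homeobox genes of the Hoxa cluster, and they were followed cell by cell in mouse *MLL-AF9* acute myeloid leukemia. The 5 genes were taken by symbol from the 27998 genes of the count table. All leukemias began as lineage-depleted bone marrow of *Kat2a* Flox/Flox donors treated with pIpC, an inducer of the interferon-responsive Mx1-Cre, with marrow collected 4 to 6 weeks later. Donors without the Cre transgene gave the *Kat2a* WT leukemias, and donors with Mx1-Cre +/- gave the *Kat2a* KO leukemias, in which the gene of a histone acetyltransferase is excised. The marrow was transduced with a retrovirus carrying the *MLL-AF9* fusion and a YFP reporter and grown in lethally irradiated recipients. Marrow of terminal disease, 5 leukemias for WT and 4 for KO, was thawed, pooled by genotype, sorted for live YFP-positive cells and captured as 1 10x Genomics 3′ library per genotype, so no leukemia inside a pool can be told from another.

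HOX genes encode transcription factors that bind DNA through a homeodomain and lie in genomic clusters named Hoxa to Hoxd. In normal marrow the posterior Hoxa genes, those toward the *Hoxa9* and *Hoxa10* end, are active in stem and progenitor cells and are switched down as myeloid cells mature. MLL fusion proteins bind the Hoxa locus and hold it active, and *Hoxa9* with its cofactor *Meis1* is a known driver of this form of leukemia.

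In GENCODE M21 (GRCm38) all 5 genes lie on the minus strand of chromosome 6 within 39101 bases. *Hoxa5* (ENSMUSG00000038253) lies at chr6:52201754-52204587, *Hoxa6* (ENSMUSG00000043219) at chr6:52206288-52208722 and *Hoxa7* (ENSMUSG00000038236) at chr6:52214491-52221854. *Hoxa9* (ENSMUSG00000038227) lies at chr6:52223100-52231089 and *Hoxa10* (ENSMUSG00000000938) at chr6:52231197-52240854. The homeobox, the coding stretch of 180 bases for the DNA-binding homeodomain, shows how near the members are to each other, so the 30 coding bases around its DNA-contacting recognition helix are printed here for 4 members from the GENCODE M21 transcripts, 5′ to 3′ on the minus strand, with capitals at bases unlike *Hoxa7*. The stretches lie at chr6:52202647-52202676 for *Hoxa5*, chr6:52206440-52206469 for *Hoxa6*, chr6:52215858-52215887 for *Hoxa7* and chr6:52232569-52232598 for *Hoxa10*.
Hoxa5: aaAatctggttccaAaaCAggAgGatgaag
Hoxa6: aagatctggttccagaatcggcgcatgaag
Hoxa7: aagatctggttccagaatcggcgcatgaag
Hoxa10: aaAatctggttTcagaatcgCAgGatgaaA
*Hoxa6* and *Hoxa7* were the same over these 30 bases and shared 88.9% of the bases of the whole homeobox. *Hoxa9* and *Hoxa10* shared 77.2% of homeobox bases and 81.7% of the 60 residues they encode, whereas *Hoxa7* and *Hoxa9* shared 66.1% of bases. Outside the homeobox the annotation had *Hoxa7* share 586 of its 2876 exonic bases with *Hoxaas3*, an antisense RNA gene on the plus strand, and the other members shared no exonic base with another counted gene. Whether counting used strand is not given in the sources used here.

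Cells with at least 500 detected genes were kept, 3866 in the WT-labelled library and 3545 in the KO-labelled library. Unique molecular identifiers (UMIs), each standing for 1 captured transcript, had a median of 2588.5 and 1884 per kept cell, and the kept cells held 11669427 and 7920256 UMIs in total. The genotype of each library rests on the bookkeeping of the study, and *Kat2a* was no check of it: the 3′ assay read the end of a transcript that the excised allele still makes, and *Kat2a* stood at 12.2 CPM (UMIs per 1000000 UMIs) in the WT-labelled library and 95.8 in the KO-labelled library. Both libraries were myeloid by their markers: all 8 primary granule progenitor genes were detected, summing to 15368 and 13804 CPM, and all 15 mature granulocyte genes, summing to 104106 and 93227 CPM. Markers of other lineages were summed as well. The 7 erythroid markers stood at 208 and 550 CPM, the 4 megakaryocyte markers at 20.8 and 135, the 7 lymphoid markers at 60.5 and 82.1, and the 6 eosinophil, basophil and mast cell markers at 151 and 216. Their part in the differences between libraries was not tested. The libraries shared 19 cell barcodes among kept cells. Each genotype was 1 library, so genotypes could not be tested against each other, and every interval given below is a 95% interval for counting error alone.

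*Hoxa9*, *Hoxa10* and *Hoxa7*, in this order, made up 85.8% of the 7398 Hox UMIs of kept cells, and *Hoxa9* and *Hoxa10* were lower in the KO-labelled library. Since the assay counts 1 end per transcript, levels were compared between genes without division by length. *Hoxa9* stood at 179 CPM (172 to 187) from 2091 UMIs in the WT-labelled library and at 120.1 CPM (113 to 128) from 951 UMIs in the KO-labelled library. *Hoxa10*, which is also able to drive myeloid leukemia when overexpressed, stood at 113 CPM (107 to 120) and 86.0 CPM (79.6 to 92.7). *Hoxa7*, another gene that MLL fusions keep active, stood at 68.0 CPM (63.4 to 72.9) and 63.8 CPM (58.3 to 69.6). In each library the intervals of these 3 genes did not overlap one another, so their order was the same in both.

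*Hoxa5*, a patterning gene also active in early blood progenitors, was far below them, with 99 UMIs or 8.48 CPM (6.90 to 10.3) and 49 UMIs or 6.19 CPM (4.58 to 8.18). *Hoxa6* was at the limit of detection with 4 UMIs in the WT-labelled library and 0 of 7920256 in the KO-labelled library, which allows up to 0.379 CPM, and no ratio was formed for it. The 5 members together held 87.8% of the UMIs of all 39 Hox genes in the table, and the Hoxb genes 779 UMIs. Among other Hoxa genes, *Hoxa3* stood at 4.03 and 3.03 CPM, *Hoxa2*, *Hoxa4* and *Hoxa11* had 23, 16 and 5 UMIs over both libraries, and *Hoxa13* had none. In the Hoxb cluster *Hoxb2* led with 28.5 and 28.4 CPM, followed by *Hoxb4* (6.77 and 8.33 CPM) and *Hoxb5* (2.31 and 2.53 CPM). The Hoxc genes had 1 UMI in all and the Hoxd genes 0.

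**Figure D1:**
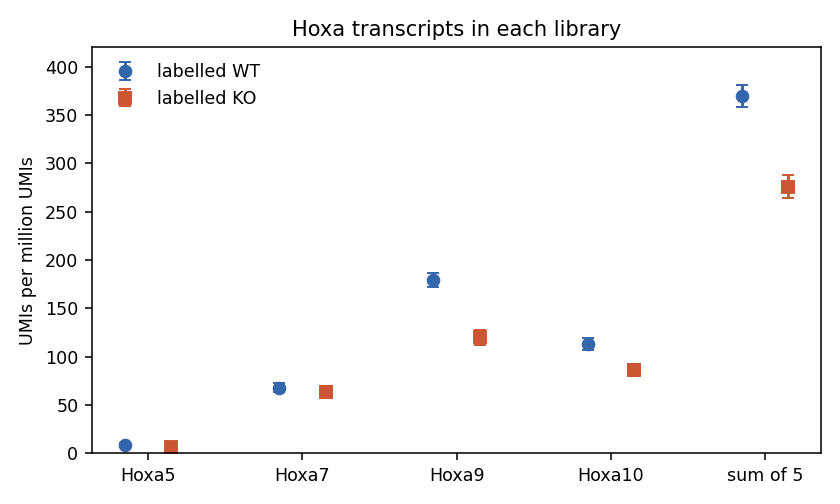
Level of 4 members and of the sum of all 5 in UMIs per 1000000 UMIs (vertical axis, linear from 0) in the WT-labelled library (circles) and the KO-labelled library (squares), with 95% Poisson intervals; *Hoxa6*, with 4 and 0 UMIs, is in the sum only. *Hoxa9* (179 against 120.1) and *Hoxa10* (113 against 86.0) are apart between the libraries, and *Hoxa7* (68.0 against 63.8) overlaps.

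As a log2 ratio of the KO-labelled library over the WT-labelled library, where 0 is no difference, *Hoxa9* was at −0.58 (−0.69 to −0.47) and *Hoxa10* at −0.40 (−0.53 to −0.26). *Hoxa7* was at −0.09 (−0.26 to 0.07) and *Hoxa5* at −0.46 (−0.98 to 0.05), so neither was apart from 0 beyond counting error. The sum of the 5 was at −0.42 (−0.50 to −0.35). Among the 9307 genes with at least 50 UMIs, which include 4 of the 5 members, 24.0% were lower in the KO-labelled library by 1.25-fold or more. That bound was passed by 3 of the 4 members, *Hoxa5*, *Hoxa9* and *Hoxa10*. The median of all these genes was −0.01.

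The makeup of the Hoxa transcripts also differed between the libraries, a measure that does not depend on the total UMIs of a library. Of the UMIs of *Hoxa7*, *Hoxa9* and *Hoxa10* together, *Hoxa9* took 49.7% (48.2 to 51.2) in the WT-labelled library and 44.5% (42.4 to 46.6) in the KO-labelled library. *Hoxa7* took 18.9% (17.7 to 20.1) and 23.6% (21.8 to 25.5). *Hoxa10* took 31.4% and 31.9%, with overlapping intervals. The antisense *Hoxaas3*, which lies within the cluster and reaches into *Hoxa7*, was higher in the KO-labelled library. It had 76 UMIs (6.51 CPM) in the WT-labelled library and 92 UMIs (11.6 CPM) in the KO-labelled library, a log2 ratio of 0.83 (0.38 to 1.29). *Hoxb2* did not differ beyond counting error (log2 ratio −0.00, −0.25 to 0.25).

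In single cells the members were sparse. At the depth of each cell, 53.4% of cells of the WT-labelled library and 38.3% of the KO-labelled library had a UMI of any member, 32.2% and 18.7% had *Hoxa9*, 25.1% and 15.2% had *Hoxa10*, and 14.6% and 10.4% had *Hoxa7*. Since cells of the WT-labelled library held more UMIs, cells were also thinned, by random draw, to 1000 UMIs each, which left 3800 and 3351 cells and left out 66 and 194. Any member was then seen in 27.1% (25.7 to 28.5) and 22.7% (21.2 to 24.1) of cells. *Hoxa9* was seen in 14.5% (13.4 to 15.7) and 9.70% (8.72 to 10.8), and *Hoxa10* in 9.82% (8.89 to 10.8) and 8.33% (7.41 to 9.31). For *Hoxa7* the libraries were not apart after thinning, with 5.39% (4.70 to 6.16) in the WT-labelled library and 5.76% (4.99 to 6.60) in the KO-labelled library. At 1500 UMIs per cell its shares were 8.08% (7.17 to 9.07) and 7.58% (6.56 to 8.71), with overlapping intervals as well.

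Most cells with *Hoxa9* carried 1 UMI of it, 750 cells in the WT-labelled library and 496 in the KO-labelled library. Cells with 3 to 5 UMIs numbered 190 and 44, and cells with 6 or more 14 and 7. A cell of the KO-labelled library held the highest count, 20 UMIs, against 15 in the WT-labelled library. The 10 cells with most *Hoxa9* held 3.73% of its 2091 UMIs in the WT-labelled library and 9.46% of its 951 UMIs in the KO-labelled library. These counts were taken without thinning. Depth and the number of cells with *Hoxa9* (1243 and 662) differed, so they do not compare the libraries. After thinning, the CV of *Hoxa9*, its standard deviation across cells divided by its mean, was 2.64 and 3.50, a log2 ratio of 0.41. Leaving out the 10 cells with most *Hoxa9* in each library gave 0.32. The log2 ratio of CV was 0.10 for *Hoxa10*, −0.08 for *Hoxa7* and 0.15 for the sum, and its median over the 2737 genes detected in at least 10% of kept cells was 0.02. A CV rises as a mean falls, and the part beyond counting, the squared CV less the inverse of the mean, was 1.20 and 3.65 for *Hoxa9*, 2.06 and 2.11 for *Hoxa10* and 4.37 and 3.12 for *Hoxa7*. Its median over the same 2737 genes was 1.31 and 2.06, so this median was also higher in the KO-labelled library, as *Hoxa9* was and *Hoxa7* was not.

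Co-detection asked whether a cell with one member was more often a cell with another. Among thinned cells of the WT-labelled library, *Hoxa9* and *Hoxa10* shared 67 cells where 54.2 were expected from the product of their shares, a ratio of 1.24 (0.96 to 1.57). In the KO-labelled library they shared 31 where 27.1 were expected, a ratio of 1.15 (0.78 to 1.62). *Hoxa7* and *Hoxa9* had ratios of 1.38 (0.99 to 1.86) and 0.75 (0.41 to 1.25), and *Hoxa7* and *Hoxa10* 1.14 (0.73 to 1.71) and 0.68 (0.34 to 1.22). All these intervals held 1, and excess co-detection of the members was not detectable at this depth. Over all 3744216 pairs of the 2737 genes the median ratio was 1.01 in each library, with 5th to 95th percentiles of 0.71 to 1.35 and 0.70 to 1.34. *Hoxa9* and *Meis1*, whose product binds DNA together with HOXA9, had ratios of 0.89 (0.54 to 1.37) and 0.92 (0.46 to 1.65). At 1500 UMIs per cell the same pair turned to 1.29 (0.97 to 1.69) and 1.60 (1.05 to 2.34), so its side of 1 depended on the depth used.

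**Figure D2:**
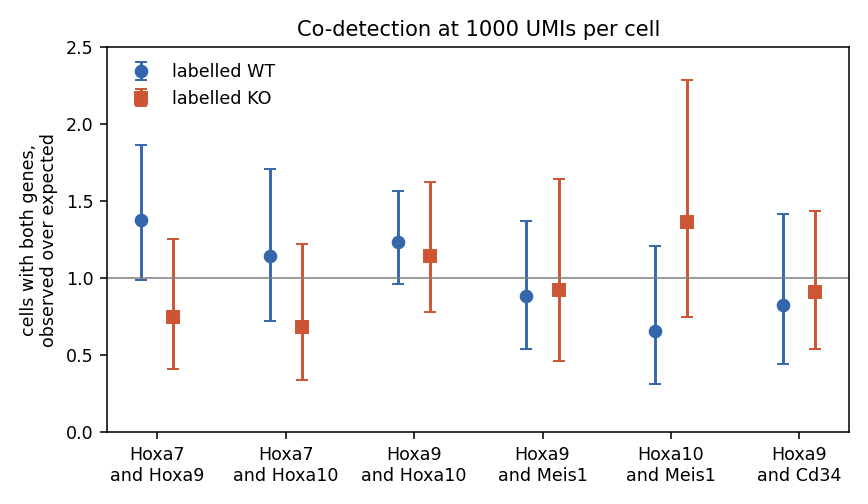
Cells with both genes of a pair over the number expected from the share of each (vertical axis, linear; the grey line is 1), in cells thinned to 1000 UMIs of the WT-labelled library (circles) and the KO-labelled library (squares), with 95% exact intervals of the observed count. Every interval holds 1, also that of *Hoxa9* and *Hoxa10* (1.24 and 1.15).

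Without thinning, cells differ in their number of UMIs, and cells with more UMIs show more of every gene. The ratio of *Hoxa9* and *Hoxa10* was then 1.35 (1.23 to 1.48) in the WT-labelled library, with 422 shared cells. In the KO-labelled library it was 1.22 (1.02 to 1.45), with 123 shared cells. The part of depth in these ratios was not tested. Without thinning, the WT-labelled library had 563 cells with 2 members, 116 with 3 and 3 with 4. The KO-labelled library had 203, 23 and 1. No cell showed all 5, but *Hoxa6* was seen in only 4 cells of the WT-labelled library and 0 of the KO-labelled library. The absence of such cells therefore does not tell whether the members share cells.

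The leukemias held cells from immature to granule-filled. Each cell was placed by its maturation share, the percentage of its UMIs from 15 genes of mature granulocytes such as *S100a8*, *S100a9*, *Camp* and *Ltf*, and the cells of both libraries together were divided into 4 ranges of equal cell number at shares of 0.643%, 6.01% and 19.8%. The share is a continuous score of granulocyte genes, not a cell type, and its low end holds monocyte-like as well as immature cells. The summed monocyte markers went from 1397 CPM in the lowest to 82.1 CPM in the highest range of the WT-labelled library. In the KO-labelled library they went from 1650 to 32.8 CPM. From the lowest to the highest range the summed mature granulocyte genes went from 2877 to 277684 CPM in the WT-labelled library, and the 8 stem and progenitor markers from 699 to 124 CPM. In the KO-labelled library the same sums went from 3053 to 265001 CPM and from 696 to 134 CPM.

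*Hoxa7* was lower in the highest than in the lowest range in both libraries, by more than *Hoxa9* and *Hoxa10* were. In the WT-labelled library, *Hoxa9* stood at 179, 189, 191 and 154 CPM from the lowest to the highest range, and *Hoxa10* at 116, 115, 119 and 102 CPM. *Hoxa7* stood at 93.1, 74.3, 52.6 and 52.8 CPM. In the KO-labelled library, *Hoxa9* stood at 128, 107, 139 and 96.4 CPM, *Hoxa10* at 86.5, 90.7, 91.8 and 72.0 CPM, and *Hoxa7* at 79.4, 74.0, 56.6 and 36.6 CPM.

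**Figure D3:**
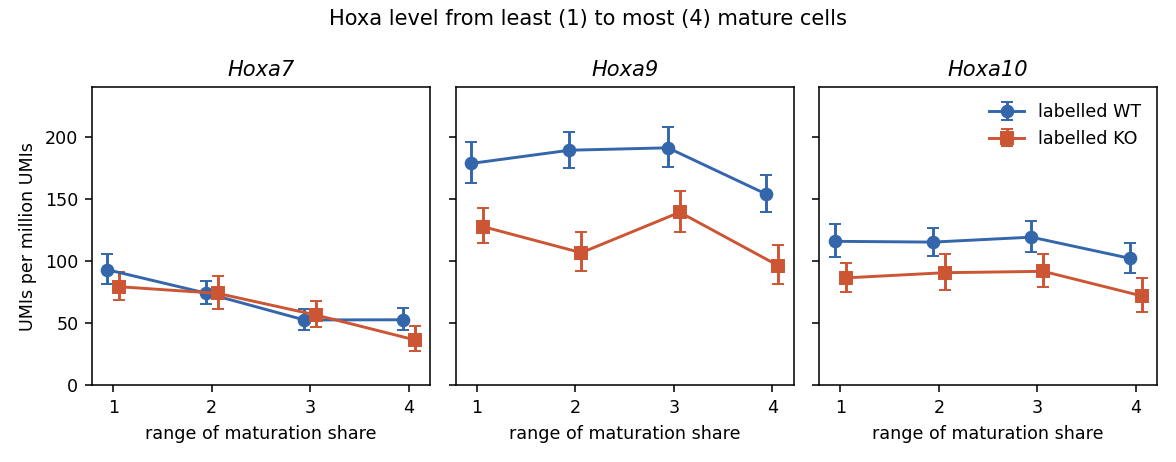
Level of *Hoxa7*, *Hoxa9* and *Hoxa10* in UMIs per 1000000 UMIs (vertical axis, linear from 0) in the 4 ranges of the maturation share. Range 1 has the lowest share of mature granulocyte genes, and also holds monocyte-like cells, and range 4 the highest. Circles are the WT-labelled library and squares the KO-labelled library, with 95% Poisson intervals. *Hoxa7* is lower to the right in both libraries (93.1 to 52.8 and 79.4 to 36.6), and *Hoxa9* is lower in the KO-labelled library in every range.

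The log2 ratio of the highest over the lowest range was −0.22 (−0.41 to −0.02) for *Hoxa9* in the WT-labelled library and −0.41 (−0.70 to −0.12) in the KO-labelled library. For *Hoxa10* it was −0.18 (−0.42 to 0.06) and −0.27 (−0.61 to 0.07), and for *Hoxa7* −0.82 (−1.13 to −0.51) and −1.12 (−1.57 to −0.68). *Hoxa5*, on 25 and 15 UMIs in the WT-labelled library and 23 and 6 in the KO-labelled library, was at −0.84 (−1.87 to 0.14) and −1.24 (−2.83 to 0.09). Granule genes take up much of the UMIs of a mature cell, and the median of the 9307 genes was −0.57 in the WT-labelled library and −0.55 in the KO-labelled library. Relative to that median *Hoxa9* was higher by 0.35 and 0.14 and *Hoxa10* by 0.38 and 0.28, and *Hoxa7* was at −0.25 and −0.57. Genes lower by 2-fold or more in the highest range made up 30.8% in the WT-labelled library, where 0 of the 4 members were among them, and 31.3% in the KO-labelled library, where *Hoxa5* and *Hoxa7* were.

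The direction of *Hoxa9* and *Hoxa10* depended on this scaling. With the granule gene lists left out of each total, the log2 ratio of *Hoxa9* was 0.23 in the WT-labelled library and 0.02 in the KO-labelled library, that of *Hoxa10* was 0.27 and 0.16, and the sum of the members was at 0.12 and −0.11. *Hoxa7* kept its direction under the same totals, at −0.37 and −0.69. A scaling-free view was the makeup of the Hoxa transcripts: of the UMIs of *Hoxa7*, *Hoxa9* and *Hoxa10*, *Hoxa7* took 24.0% (21.4 to 26.8) in the lowest and 17.1% (14.6 to 19.8) in the highest range of the WT-labelled library. In the KO-labelled library it took 27.0% (23.9 to 30.4) and 17.9% (13.8 to 22.5). The intervals did not overlap in either library. With all UMIs in the totals but the monocyte-like and macrophage-like clusters described below left out, the log2 ratio of *Hoxa9* was −0.38 and −0.39. That of *Hoxa10* was then −0.26 and −0.38, and that of *Hoxa7* −0.83 and −1.16.

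Some genes of a list of 10 known HOXA9 target genes, taken as a whole further below, were set beside the members. Over both libraries, 8 of the 10 were lower and 1 was higher by 2-fold or more in the highest range. Its member *Pim1* was at a log2 ratio of −0.44 (−0.69 to −0.20), and the cofactor *Meis1*, from another list, at −0.49 (−0.80 to −0.19). *Flt3*, a receptor kinase of progenitors, stood at 65.5 CPM (55.9 to 76.2) in the lowest and 1.47 CPM (0.40 to 3.75) in the highest range of the WT-labelled library, and at 83.4 and 1.29 CPM in the KO-labelled library. *Sox4*, a transcription factor of immature cells, stood at 53.2 and 1.83 CPM, and at 42.5 and 1.29 CPM. *Bcl2*, an inhibitor of cell death, stood at 37.5 and 1.47 CPM, and at 45.3 and 1.29 CPM. *Myb*, a transcription factor of progenitors, stood at 198 and 89.0 CPM, and at 166 and 89.3 CPM. *Hoxa9* was at 154 and 96.4 CPM in the same highest ranges.

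Within each range *Hoxa9* was lower in the KO-labelled library, with log2 ratios of −0.48, −0.83, −0.46 and −0.68 from the lowest to the highest range and no interval reaching 0. *Hoxa10* was lower in each as well, at −0.42, −0.35, −0.38 and −0.51. *Hoxa7* was at −0.23, −0.00, 0.10 and −0.53, and in the highest range alone did its interval (−0.996 to −0.07) leave out 0. The lowest range held 19.4% of kept cells of the WT-labelled library and 31.1% of the KO-labelled library.

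*Hoxa9* and *Hoxa10* were also followed along the cell cycle. Cells were ranked by the share of UMIs from 40 genes of the G2 and M phases, with bounds at 0%, 0.0880% and 0.349%. The lowest range is therefore the cells with no UMI of the list, and 43.9% of kept cells lay within 1 UMI of that bound, so the lower ranges are coarse and depend on depth: median UMIs per cell were 1745 in the lowest and 3552 in the highest range of the WT-labelled library, and 1402 and 2432 in the KO-labelled library. *Hoxa9* stood at 139, 166, 185 and 212 CPM from the lowest to the highest range in the WT-labelled library, and at 107, 102, 106 and 147 CPM in the KO-labelled library. *Hoxa10* stood at 108, 119.9, 118 and 106 CPM, and at 99.5, 107, 77.1 and 75.9 CPM. *Hoxa7* lay between 64.2 and 71.4 CPM and between 54.0 and 74.7 CPM.

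**Figure D4:**
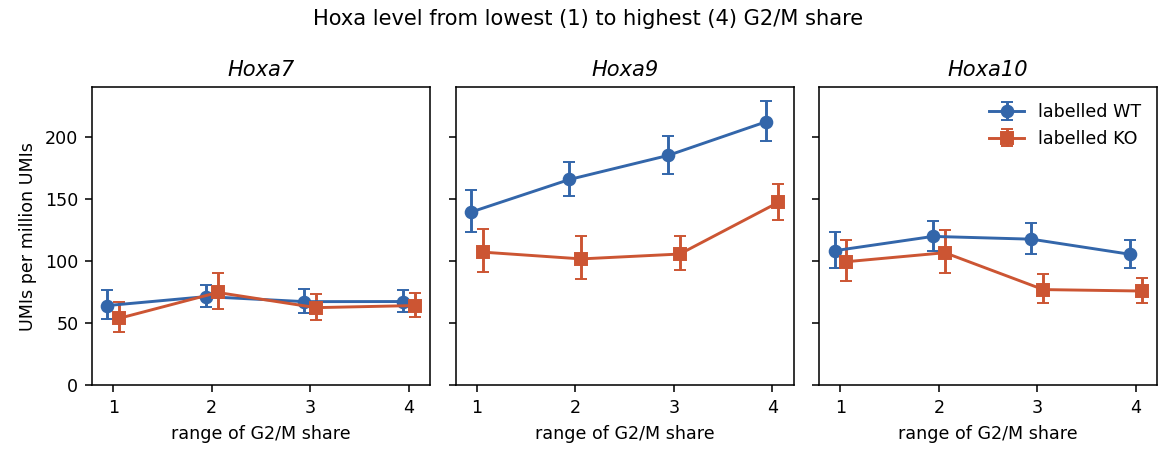
Level of *Hoxa7*, *Hoxa9* and *Hoxa10* in UMIs per 1000000 UMIs (vertical axis, linear from 0) in 4 ranges of the share of UMIs from G2/M genes, 1 the lowest and 4 the highest, for the WT-labelled library (circles) and the KO-labelled library (squares), with 95% Poisson intervals. *Hoxa9* is highest in range 4 of both libraries (212 and 147), where *Hoxa10* is not (106 and 75.9).

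The log2 ratio of the highest over the lowest G2/M range was 0.61 (0.40 to 0.81) for *Hoxa9* in the WT-labelled library and 0.46 (0.19 to 0.73) in the KO-labelled library. For *Hoxa10* it was −0.04 (−0.29 to 0.21) and −0.39 (−0.70 to −0.07), and for *Hoxa7* 0.07 (−0.25 to 0.40) and 0.25 (−0.14 to 0.65). Genes higher by 1.25-fold or more made up 37.4% in the WT-labelled library and 30.4% in the KO-labelled library, and *Hoxa9* was the 1 of the 4 members among them in each. When the ranges were set on cells thinned to 1000 UMIs, an alternative added after the values were seen, *Hoxa9* was at 0.44 and 0.41. Among cells with 1000 or more genes *Hoxa9* was at 0.21 and 0.75 and *Hoxa10* at 0.19 and 0.13, so that in the WT-labelled library the values of the 2 genes lay close together there.

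The makeup of the Hoxa transcripts again gave the view without totals. *Hoxa9* took 44.7% (40.7 to 48.7) of the UMIs of *Hoxa7*, *Hoxa9* and *Hoxa10* in the lowest and 55.1% (52.3 to 57.9) in the highest G2/M range of the WT-labelled library, and 41.1% (36.1 to 46.3) and 51.2% (47.7 to 54.7) in the KO-labelled library. *Hoxa10* took 34.7% (31.0 to 38.6) and 27.4% (24.9 to 29.96), and 38.2% (33.2 to 43.3) and 26.4% (23.4 to 29.6). Neither pair of intervals overlapped for either gene. The difference between libraries was present in every G2/M range for *Hoxa9*, at −0.38, −0.70, −0.81 and −0.53 from the lowest to the highest. *Hoxa10* was at −0.12, −0.17, −0.61 and −0.47. Its interval held 0 in the lowest range (−0.44 to 0.19) and in the next (−0.45 to 0.11).

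Clusters of cells were built with all Hox genes left out, so that the members did not shape them, and 9 of the 12 were described by markers. Clusters 2 and 11 were mature granulocyte-like (both with *Mmp9*, *Lcn2* and *C5ar1* among their leading genes), cluster 6 primary granule progenitor-like (*Mpo*, *Elane*, *Ctsg*), cluster 7 macrophage-like (*Ccl6*, *Apoe*) and clusters 8 and 12 monocyte-like (*Irf8*, *Ms4a6c*). Clusters 4 and 9 were led by G2/M genes and cluster 5 by S phase genes. Clusters 1, 3 and 10 had too few markers to be named and held 8.30%, 4.24% and 7.19% of kept cells of the WT-labelled library and 14.3%, 15.4% and 7.02% of the KO-labelled library.

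In the WT-labelled library *Hoxa9* was highest in cluster 9, the G2/M cluster that also expressed *Elane*, at 244 CPM (219 to 272), followed by the S phase cluster at 220.3 CPM (188 to 257) and the primary granule progenitor-like cluster at 203 CPM (181 to 227). These neighbours overlapped in their intervals. It was lowest in the macrophage-like cluster at 96.7 CPM (74.6 to 123) and in the mature granulocyte-like cluster 2 at 117 CPM (97.8 to 139), which overlapped as well. In the KO-labelled library *Hoxa9* lay between 68.6 CPM in the mature granulocyte-like cluster 11 and 155 CPM in the monocyte-like cluster 12. *Hoxa9* was thus found in every cluster of both libraries, and even in the macrophage-like cluster 12.1% and 10.9% of cells had a UMI of it at median depths of 1396 and 1147 UMIs. Every sorted cell carried the reporter, and no cluster is known to lack *Hoxa9* and so to give its background. *Hoxa10* lay between 94.02 and 149.5 CPM in the WT-labelled library, where its highest cluster was 1.59 times its lowest, against 2.53 times for *Hoxa9*. It lay between 48.4 and 125 CPM in the KO-labelled library, a ratio of 2.58 against 2.26 for *Hoxa9*.

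**Figure D5:**
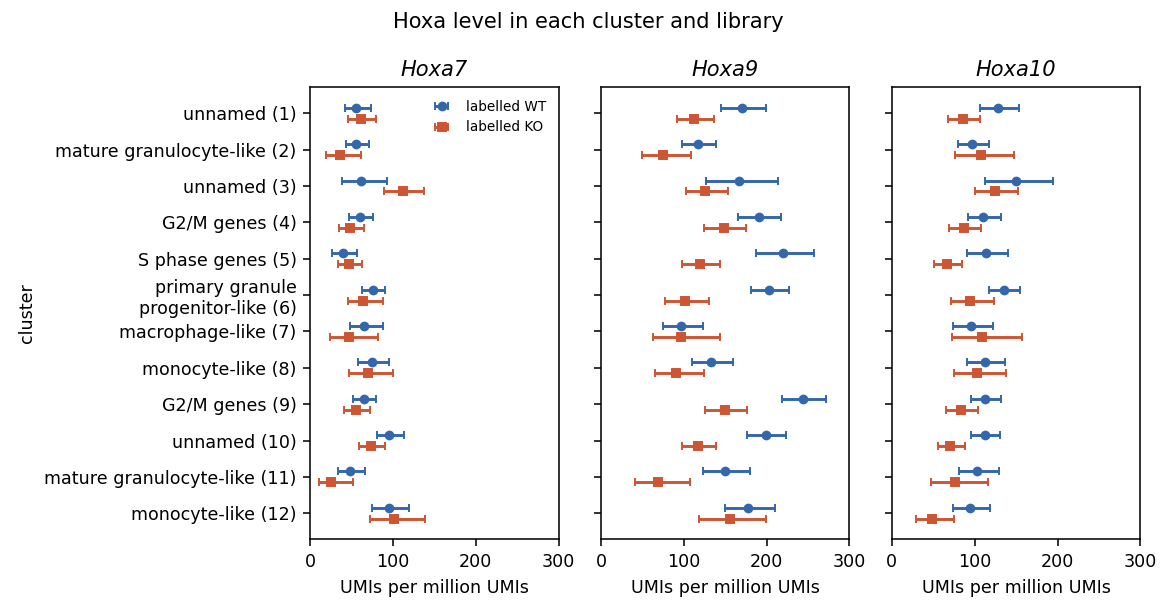
Level of *Hoxa7*, *Hoxa9* and *Hoxa10* in UMIs per 1000000 UMIs (horizontal axis, linear from 0) in 12 cell clusters (vertical axis, cluster number in brackets), for the WT-labelled library (circles) and the KO-labelled library (squares), with 95% Poisson intervals. *Hoxa9* is lower in the KO-labelled library in 11 clusters and nearly equal in the macrophage-like cluster 7 (96.7 and 97.2).

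Cluster by cluster, *Hoxa9* was lower in the KO-labelled library in 11 of 12 clusters, with the interval below 0 in 9. The log2 ratios ran from −1.12 in the mature granulocyte-like cluster 11 to 0.01 in the macrophage-like cluster. In the primary granule progenitor-like cluster *Hoxa9* stood at 203 and 101 CPM. *Hoxa10* was lower in 10 of 12, with the interval below 0 in 6, and was at 0.15 and 0.19 in the mature granulocyte-like cluster 2 and the macrophage-like cluster. *Hoxa7* was lower in 8 of 12 with no interval below 0, and in the unnamed cluster 3 it was higher in the KO-labelled library, at 112 against 60.9 CPM (log2 ratio 0.87, 0.18 to 1.62). When each cluster was given the same weight in both libraries, the log2 ratio was −0.61 (−0.73 to −0.49) for *Hoxa9*, −0.34 (−0.49 to −0.19) for *Hoxa10*, −0.08 (−0.26 to 0.10) for *Hoxa7*, −0.63 (−1.19 to −0.07) for *Hoxa5* and −0.42 (−0.50 to −0.34) for the sum. The differences between the libraries were thus as large after weighting as before for *Hoxa9* and the sum.

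Across the 24 points formed by the 12 clusters in each library, *Hoxa7* and *Hoxa9* had a Pearson r of 0.39, *Hoxa9* and *Hoxa10* of 0.31 and *Hoxa7* and *Hoxa10* of 0.03, as a description, since points share a library and its depth. The genes whose level was most like the sum of the members over these points were *Yy1* (r = 0.85), *Rbm25* (0.85), *Xist* (0.82), *Prpf38b* (0.80) and *Eif3a* (0.79), all 5 at a higher level in the WT-labelled library. Within the 12 points of 1 library, r was 0.58 and 0.83 for *Yy1*, 0.78 and 0.75 for *Rbm25* and 0.39 and 0.82 for *Xist*. Genes with the most opposed pattern were *Eno1b* (−0.72), *Plaur* (−0.69), *Selk* (−0.68), *Capzb* (−0.67) and *Mpc2* (−0.67). Within the WT-labelled library and the KO-labelled library r was −0.26 and −0.54 for *Eno1b*, −0.90 and −0.58 for *Plaur* and −0.75 and −0.64 for *Mpc2*. For *Selk* (−0.79 and −0.14) and *Capzb* (−0.81 and −0.04) it was weak in the KO-labelled library.

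Genes that work with the Hoxa locus were set beside the members by fixed lists. Of 9 HOX cofactors of the Meis, Pbx and Pknox families, 6 had at least 50 UMIs. *Pbx4* was higher in the KO-labelled library by 1.25-fold or more, at 5.31 against 7.20 CPM with an interval that held 0 (−0.11 to 0.98); 18.4% of all 9307 genes were higher by 1.25-fold or more. *Meis1* stood at 44.1 and 37.9 CPM, a log2 ratio of −0.22 (−0.43 to −0.01).

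Of 12 writers and fusion partners that act at the Hoxa locus, 11 had at least 50 UMIs, of which 8 were lower and 3 higher by 1.25-fold or more, with a median log2 ratio of −0.36; of all 9307 genes, 24.0% were lower and 18.4% higher by that bound. The intervals of *Men1*, *Dot1l*, *Mllt1*, *Aff1* and *Aff4* held 0. *Kmt2a*, which encodes MLL1 itself, was at 52.7 and 26.0 CPM (log2 ratio −1.02, −1.25 to −0.79). *Ezh2*, the Polycomb methyltransferase, was at 59.2 and 39.3 CPM (−0.59, −0.79 to −0.40), and *Mllt10*, a cofactor of DOT1L, at 47.3 and 31.8 CPM (−0.57, −0.79 to −0.35). *Psip1*, which encodes the chromatin tether LEDGF, was higher in the KO-labelled library, at 43.8 and 57.7 CPM (0.40, 0.21 to 0.58).

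Of 10 known HOXA9 target genes, all with at least 50 UMIs, 1 was lower and 3 were higher in the KO-labelled library by that bound, with a median of 0.10, against 24.0% and 18.4% of all genes. *Pim1*, a survival kinase, was at 85.3 and 53.3 CPM (log2 ratio −0.68, −0.85 to −0.51), while *Bcl2* (0.68, 0.33 to 1.03), *Flt3* (0.34, 0.10 to 0.58) and *Sox4* (0.34, 0.02 to 0.65) were higher. *Myb* stood at 142 and 145 CPM and *Myc* at 40.1 and 42.0 CPM, neither apart beyond counting error. Over both libraries, 8 of these 10 genes were lower by 2-fold or more in the highest range of the maturation share, against 29.1% of all genes, with a median log2 ratio of −1.44 against −0.55. *Hoxa9* itself, at −0.22 and −0.41 in the WT-labelled and KO-labelled libraries, was not among the genes past that bound.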

How the data were processed

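The authors ran Cell Ranger and deposited 1 matrix of UMI counts per gene and cell for both libraries, not normalized. The submitters' processing notes name Cell Ranger 1.3.1 and build mm10, the study's methods another version of the program, and the annotation version is not given in the sources used here. Libraries were told apart by the barcode ending, and the genotype of each ending follows the analysis code published with the study. Cells with 500 or more genes were kept. Doublets were not removed; leaving out the 5% of cells with most UMIs was an alternative. CPM was UMIs per 1000000 UMIs of the cells summed. Poisson and binomial intervals were exact; ratios carry the exact conditional interval. Interval percent was 95, and the limit for a count of 0 was 3 counts. PCR copies were already merged into UMIs, and intervals cover counting error only. Thinning drew 1000 or 1500 UMIs per cell without replacement.

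Clusters came from k-means (12 clusters, 10 starts) after log values of 784 variable genes were reduced to 20 principal components. A cluster was named where at least 3 listed markers were raised 1.5-fold and at least 2 were among its 10 leading genes; this naming limit was set with earlier results of these data known. The pseudocount for likeness between genes was 10 CPM. The code was tested on simulated data. Python 3.11.15, numpy 2.4.6, scipy 1.17.1, pandas 2.3.3, scikit-learn 1.9.0 and matplotlib 3.10.9 were used. Positions and sequences are from GENCODE M21 (GRCm38).

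The members, gene lists and limits were chosen with earlier results of these data known. Named genes were the 5 members, the other Hoxa genes and Hox genes with 30 or more UMIs, the cofactor, writer and target lists, and the 5 genes most and least like the summed members. Neither genotype could be tested against the other, and the spread between leukemias cannot be measured in pools. Some genes of these lists and 1 homeobox stretch are not reported here.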

Additional observations from a re-analysis of the deposited data

Results flagged for a closer look

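Cells under 500 detected genes took no part in the comparisons above, and UMIs of the members were nevertheless counted in them. The source of these UMIs was not tested. In the 203 such cells of the WT-labelled library the 5 members had 41 UMIs, or 184 CPM (132 to 249), above the 13.4 CPM that a count of 0 allows. In the 695 such cells of the KO-labelled library they had 155 UMIs, or 233 CPM (198 to 273), above 4.51 CPM. In the KO-labelled library *Hoxa10* had 63 UMIs there, *Hoxa9* 57 and *Hoxa7* 33. The intervals of *Hoxa10* (72.8 to 121 CPM) and *Hoxa9* (64.9 to 111 CPM) overlapped, so their order was not settled. In the WT-labelled library *Hoxa9* had 19 UMIs, *Hoxa10* 17 and *Hoxa7* 3, and the intervals of *Hoxa9* and *Hoxa10* overlapped as well.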

How the results depend on the processing

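Of 48 alternative values of the summed members and of the co-detection of *Hoxa9* and *Hoxa10*, 36 stayed within the 95% interval of the reported value (for CV, which has none, within 1.5 times), 11 moved further and 1 reversed. Among the 36, that co-detection in the KO-labelled library went from 1.15 to 0.99 at 1500 UMIs. For the log2 ratio of the KO-labelled library over WT, −0.42 in the report, cells with 1000 or more genes gave −0.53 and cells thinned to 1000 UMIs −0.34. The difference in percent of cells with any member, −4.46 percentage points, was −15.0 without thinning, −8.36 at 1500 UMIs and −7.19 in cells with 1000 or more genes. For the maturation ratio in the WT-labelled library, totals without the granule lists reversed the sum to 0.12 and *Hoxa9* to 0.23, and cells with 1000 or more genes gave −0.19 for the sum and reversed *Hoxa9* to 0.063. In the KO-labelled library, 3 ranges in place of 4 gave −0.32, and totals without the granule lists gave −0.11 and reversed *Hoxa9* to 0.023. For the G2/M ratio, cells with 1000 or more genes gave 0.083 in the WT-labelled library and reversed *Hoxa10* to 0.13 in the KO-labelled library. The log2 ratio of CV, 0.15, was 0.31 without thinning and 0.24 at 1500 UMIs, and for *Hoxa7* reversed to 0.26 and 0.0096. The cause of these moves was not tested. Of 148 alternative values of single members and other pairs, 124 stayed within those limits, 18 moved and 6 reversed. In all 21 of the 148 lay on the other side of no difference, 10 of them within the limits, mostly for *Hoxa7*, whose log2 ratio of −0.09 became 0.09 in cells thinned to 1000 UMIs. Leaving out cells whose barcode occurs in both libraries, added after the values were seen, gave −0.42 for the sum. No paired analysis was possible because each genotype had a single pool and library. At 1000 UMIs per cell, pairs of members were expected together in at most 54.2 cells, which limits what co-detection can show.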
